A study of Homo sapiens with 9 samples.

Results

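The comparison covers 6 of the 9 libraries of a study of human colorectal cancer cells in low oxygen. All 6 were made from SW480, an established human colorectal cancer cell line, held at 1% oxygen for 48 h. In 3 libraries the hypoxic cells had received no named compound (control). In the other 3 they had received sulforaphane (SFN) together with 5-fluorouracil (5-FU), written SFN+5-FU here. The libraries were taken by their labels, not by a measured value. The labels call the 3 libraries of a group biological replicates but give no dose of either compound for the combination. They give 25 µM SFN for the remaining group, on SFN alone, which enters here only through the expression filter and named alternatives. No library with 5-FU alone or in normal oxygen is analysed here, so the share of each compound in a difference, and the response to hypoxia itself, cannot be told apart from these 6 libraries. The question put to them is what the combination changes in hypoxic cells, with HIF-1α and PI3K/AKT/mTOR named in the series title.

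Sulforaphane is an isothiocyanate from cruciferous vegetables that modifies cysteines of KEAP1 and thereby frees the transcription factor NRF2. 5-fluorouracil is a pyrimidine analogue used against colorectal cancer: its nucleotide products block thymidylate synthase and enter RNA and DNA. In low oxygen the HIF-1α subunit escapes prolyl hydroxylation and degradation, and HIF-1 then drives genes of glucose use, angiogenesis and oxygen sensing. SW480 cells carry a truncated APC, which leaves Wnt signalling active.

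The unit of expression was FPKM, which relates fragments to transcript length and to the library total, and the number of fragments behind a value is unknown. FPKM summed to between 259184 and 269690 per library. Each fold change below is a difference of mean log2(FPKM + 1), which understates changes of genes of low expression, and a gene is said to rise or fall where limma's moderated test gave an adjusted p of at most 0.05. Pearson's r on that scale was 0.990 to 0.993 among control libraries, 0.993 among SFN+5-FU libraries and 0.899 to 0.921 between the groups, a description of similarity across genes. Because the group on SFN alone shares the expression filter, a library from it was compared as well. The library labelled SFN replicate 2 had an r of 0.993 with each SFN+5-FU library, as high as theirs with one another. The r of the other SFN libraries is not given here. SFN replicate 2 enters below only through the filter and where all 9 libraries are named. Markers of colonic epithelium were all 8 above the filter, with summed FPKM of 2550 to 2600 in control and 1710 to 1720 with SFN+5-FU. Markers of T and B cells summed to at most 0.28 FPKM with PTPRC at 0, those of fibroblasts to at most 2.05 FPKM, and those of endothelium to at most 0.92 FPKM with CDH5 at 0. Myeloid markers summed to 4.86 to 5.41 FPKM in control and 7.93 to 11.4 FPKM with SFN+5-FU, through CD68, a lysosomal glycoprotein, which rose from 0.6, 0.61 and 0.48 FPKM to 8.96, 7.92 and 5.59 FPKM (log2 fold change 2.42). The other myeloid markers above the filter, LYZ and CD14, fell. Mitochondrially encoded transcripts held 25.2% to 26.2% of FPKM in control and 17.3% to 19.7% with SFN+5-FU. The part of the marker and mitochondrial differences in the results below was not tested. FPKM values are shares of a library, so what some transcripts lose others gain, and the median log2 fold change over all tested genes was 0.097 (0.0038 after median-of-ratios scaling and 0.011 with the mitochondrial transcripts left out).

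Of the 37 gene lists examined, HIF-1 targets had the largest share of members that fell. DDIT4, an inhibitor of mTOR complex 1 induced by hypoxia and stress, had 135, 152 and 114 FPKM in control and 11.3, 12.7 and 14.9 FPKM with SFN+5-FU (log2 fold change -3.26, SE 0.12, adjusted p = 4.64e-07). ANKRD37, an ankyrin repeat protein known as a hypoxia-induced gene, had 24.7, 25.7 and 20.3 FPKM in control and 3.21, 2.23 and 3.13 FPKM with SFN+5-FU (log2 fold change -2.67, SE 0.12, adjusted p = 9.99e-07). The glycolytic aldolase ALDOC had 19.8, 19.3 and 16.4 FPKM in control and 2.1, 2.06 and 2.52 FPKM with SFN+5-FU (log2 fold change -2.59, SE 0.086, adjusted p = 3.22e-07). In each of these genes the lowest control library lay more than 6-fold above the highest SFN+5-FU library. They were the 3 HIF-1 targets with the largest decreases among those with the core HIF binding letters in the promoter, and their promoters are shown for that reason. Each runs from 250 bases before to 50 bases after the transcription start in RefSeq on GRCh38.p14, 5′ to 3′ on the gene's strand. DDIT4 is at chr10:72273674-72273973 on the plus strand, ANKRD37 at chr4:185396591-185396890 on the plus strand and ALDOC at chr17:28576846-28577145 on the minus strand. Capitals mark ACGTG on either strand, written CACGT where it lies on the other strand and CACGTG where both overlap.
DDIT4: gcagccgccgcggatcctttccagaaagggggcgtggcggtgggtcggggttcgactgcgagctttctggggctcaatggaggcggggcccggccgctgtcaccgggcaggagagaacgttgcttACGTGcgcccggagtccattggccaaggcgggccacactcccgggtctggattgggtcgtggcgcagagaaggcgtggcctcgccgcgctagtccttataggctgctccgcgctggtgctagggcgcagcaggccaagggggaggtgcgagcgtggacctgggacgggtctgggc
ANKRD37: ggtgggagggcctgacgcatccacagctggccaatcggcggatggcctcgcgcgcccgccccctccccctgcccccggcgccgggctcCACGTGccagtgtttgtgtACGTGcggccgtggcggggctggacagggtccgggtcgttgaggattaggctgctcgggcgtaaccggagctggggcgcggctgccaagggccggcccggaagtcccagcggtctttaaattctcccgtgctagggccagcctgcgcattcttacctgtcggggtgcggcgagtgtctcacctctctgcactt
ALDOC: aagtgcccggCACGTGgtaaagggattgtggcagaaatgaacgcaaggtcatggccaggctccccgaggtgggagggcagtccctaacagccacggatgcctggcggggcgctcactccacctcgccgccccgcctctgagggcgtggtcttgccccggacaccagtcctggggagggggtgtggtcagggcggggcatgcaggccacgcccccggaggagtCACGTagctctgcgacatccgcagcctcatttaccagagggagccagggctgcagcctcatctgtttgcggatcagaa
The DDIT4 match begins 125 bases before the start. The ANKRD37 promoter holds a CACGTG, which counts as 2 overlapping matches, and a further ACGTG that begins 143 bases before the start. The ALDOC promoter holds a CACGTG near its far end and a match that begins 28 bases before the start. Among the 50 tested HIF-1 targets 43 had a promoter in the RefSeq table, and 24 of these (55.8%) held ACGTG on either strand, against 21.6% of all 27305 promoters of that length and 27.4% of the 9236 that belong to tested genes. A match is only a run of letters, and binding was not measured.

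Among these 50 genes 49 fell and none rose, where 31.7% of all tested genes fell and 75.8% were called in either direction. The exception, WSB1, a ubiquitin ligase adaptor, had 4.87, 4.91 and 5.69 FPKM in control and 5.72, 6.03 and 5.57 FPKM with SFN+5-FU and the groups overlap (adjusted p = 0.0903, and as low as 0.0157 over the alternatives, where it was called higher without control replicate 3 and with library weights). The median log2 fold change of the 50 was -0.9. The median of their differences from the control mean was -0.865, -0.958 and -0.878 in the 3 SFN+5-FU libraries, and 0.0443, 0.0404 and -0.0823 in the control libraries. The 3 SFN+5-FU libraries sat close together, and control replicate 3 was the control nearest to them. At least 2-fold decreases were found in 21 of the 50, against 5.81% of all tested genes. The other 4 listed targets, LOX, PPP1R3C, BNIP3 and CA12, were below the filter. In bulk RNA fewer cells of a type and less RNA per cell cannot be told apart.

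**Figure D1:**
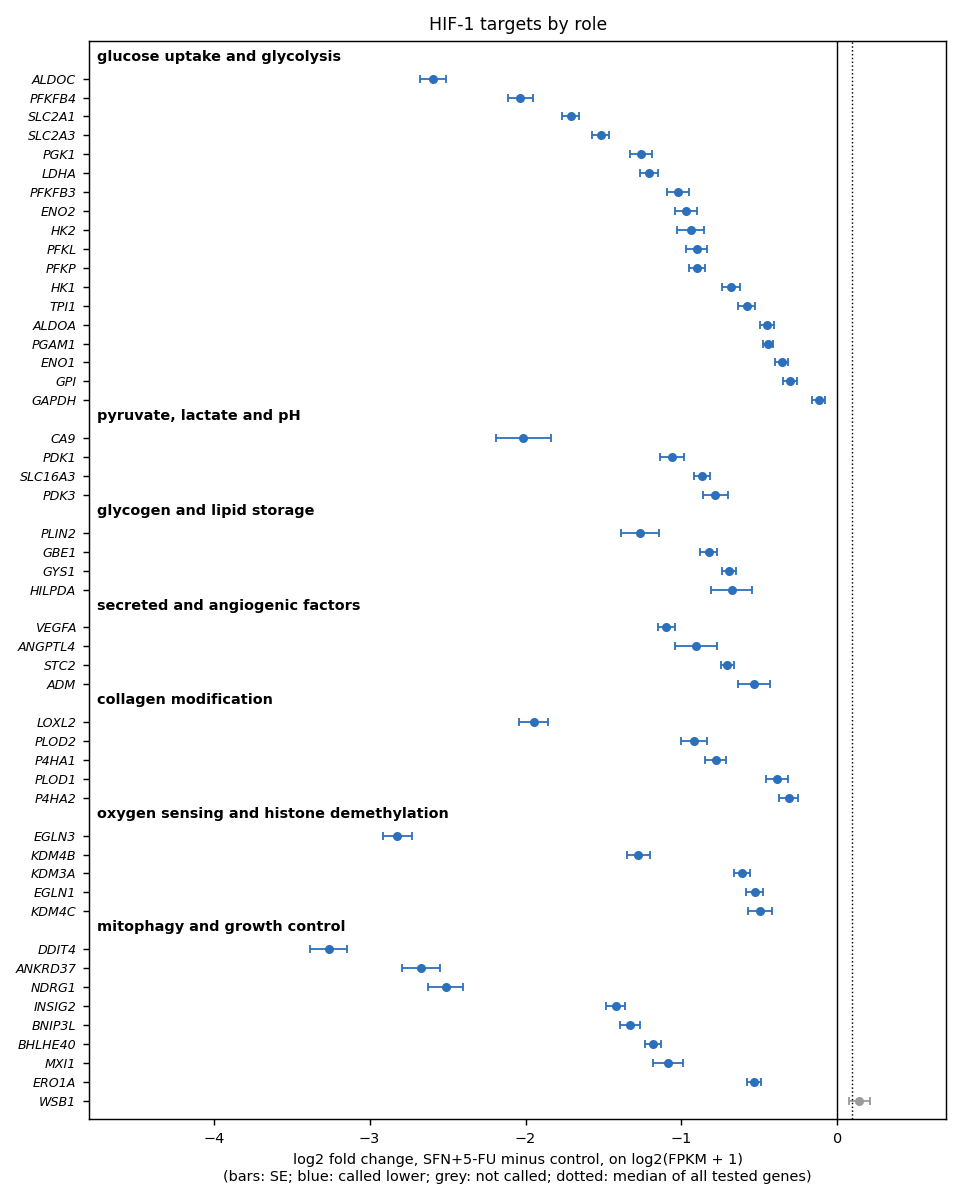
Log2 fold change (SFN+5-FU minus control, horizontal axis, with SE bars) of 49 of the 50 tested HIF-1 targets, grouped by role. All but WSB1 lie to the left of 0 and are drawn in blue as called lower, from GAPDH at -0.12 to DDIT4 at -3.26.

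Of glucose uptake and glycolysis all 18 tested genes were called lower, where 31.7% of all tested genes were. SLC2A3, the GLUT3 glucose transporter, fell from 588, 622 and 551 FPKM to 214, 202 and 197 FPKM (log2 fold change -1.52). PFKFB4, which makes the activator of phosphofructokinase, fell by 2.03 on the log2 scale (SE 0.080), and the kinase PGK1 and the lactate dehydrogenase LDHA by 1.26 and 1.21. GAPDH, the glycolytic dehydrogenase often used as a reference gene, moved least and fell from 2266, 2288 and 2241 FPKM to 2013, 2068 and 2174 FPKM, a log2 fold change of -0.12 whose call was lost without any 1 of 5 libraries (all but SFN+5-FU replicate 3), with quantile normalization and in 4 other alternatives (adjusted p up to 0.263). ENO1, ALDOA and PGAM1, all glycolytic enzymes, fell by 0.36, 0.45 and 0.44 (log2). Enzymes that send pyruvate away from mitochondria or export its products were lower as well: the pyruvate dehydrogenase kinase PDK3 fell by 0.78, the lactate exporter SLC16A3 by 0.87 (log2), and CA9, the membrane carbonic anhydrase, from 15.4, 13.8 and 10.4 FPKM to 3.09, 1.72 and 2.8 FPKM (log2 fold change -2.01). The lipid droplet protein PLIN2 fell by 1.26 and the glycogen branching enzyme GBE1 by 0.83 (log2).

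Among genes that act outside the cell, the angiogenic factor VEGFA had 5.19, 5.35 and 5.07 FPKM in control and 1.88, 1.87 and 1.95 FPKM with SFN+5-FU (log2 fold change -1.1, SE 0.054, adjusted p = 1.30e-06). The groups were far apart. LOXL2, which crosslinks collagen, had a log2 fold change of -1.95 (adjusted p = 1.24e-06). The prolyl hydroxylases P4HA1 and P4HA2, which mature collagen, fell by 0.78 and 0.31 (log2). Of the enzymes that sense oxygen, EGLN3 fell from 21.2, 21.9 and 18.5 FPKM to 2.32, 1.7 and 2.13 FPKM (log2 fold change -2.82), while EGLN1, the main HIF prolyl hydroxylase, fell by 0.53 and the histone demethylases KDM4B and KDM3A by 1.28 and 0.61 (log2). The stress gene NDRG1 and the mitophagy receptor BNIP3L fell by 2.51 and 1.33 (log2). The mRNA of HIF1A itself had 18.5, 16.9 and 19.3 FPKM in control and 20.1, 22.2 and 18.2 FPKM with SFN+5-FU. These groups overlap, and the log2 fold change of 0.14 did not pass the test (adjusted p = 0.142). It was called higher without SFN+5-FU replicate 3 (log2 fold change 0.2, adjusted p = 0.0399) and called lower when GC content and transcript length were corrected for (-0.13). EPAS1, the HIF-2α gene, fell from 80.3, 79.2 and 74.1 FPKM to 22.6, 20.2 and 20.2 FPKM (log2 fold change -1.84).

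Components of PI3K/AKT/mTOR moved in both directions. Of 31 tested, 9 rose and 14 fell, where 44.0% of all tested genes rose and 31.7% fell. Their median log2 fold change was -0.081, against 0.097 over all tested genes, and none was beyond 1 in size on log2(FPKM + 1). On FPKM itself the means of PIK3CD, ULK1 and PIK3CB fell 2.52-, 2.21- and 2.08-fold. Within the PI3K enzymes the catalytic subunits parted: PIK3CA rose from 2.14, 1.8 and 2.08 FPKM to 3.22, 3.27 and 2.98 FPKM (log2 fold change 0.47), while PIK3CB fell from 7.96, 7.53 and 7.79 FPKM to 3.56, 4.33 and 3.28 FPKM (log2 fold change -0.9) and PIK3CD by 0.8 (log2). The groups do not overlap for any of the 3 subunits. All 3 AKT genes fell. AKT1 had 26.3, 26.3 and 26 FPKM in control and 18.2, 17.8 and 19.2 FPKM with SFN+5-FU, a log2 fold change of -0.49 that was -0.083 after the GC and length correction and then missed the threshold (adjusted p = 0.0758). RPTOR, which recruits substrates to mTOR complex 1, fell from 3.9, 4.03 and 4.05 FPKM to 1.86, 2.03 and 2.18 FPKM (log2 fold change -0.73), while MTOR had 6.09, 5.86 and 5.82 FPKM in control and 5.21, 5.68 and 5.4 FPKM with SFN+5-FU and did not pass the test (adjusted p = 0.0969, and as low as 0.0085 with another scaling, while its sign turned with the GC and length correction). Downstream, the autophagy kinase ULK1 and the insulin receptor substrate IRS2 fell by 0.93 and 0.66, and the cap-binding factor EIF4E and the S6 kinase RPS6KB2 rose by 0.47 and 0.45 (log2). The translation repressor EIF4EBP1 had a log2 fold change of -0.12 (adjusted p = 0.034), a call lost in 9 alternatives, among them the omission of control replicate 1, control replicate 3, SFN+5-FU replicate 1 or SFN+5-FU replicate 2 (adjusted p from 0.000913 to 0.41 over all alternatives). Phosphorylation, through which this pathway signals, was not measured.

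Genes that handle 5-FU rose more often than they fell: 16 of 25 tested were higher, where 44.0% of all tested genes were, and 5 were lower. TYMS, which encodes thymidylate synthase, had 39.4, 38.9 and 45.7 FPKM in control and 95.6, 101 and 95.2 FPKM with SFN+5-FU (log2 fold change 1.22, SE 0.065, adjusted p = 1.83e-06). UPP1, the uridine phosphorylase that joins 5-FU to ribose, had 8.1, 8.55 and 10.4 FPKM in control and 39.5, 49.1 and 54.5 FPKM with SFN+5-FU (log2 fold change 2.28, SE 0.12, adjusted p = 2.03e-06). RRM2, the regulated subunit of ribonucleotide reductase, which makes deoxynucleotides, had 32.1, 33.2 and 39.3 FPKM in control and 94.5, 103 and 99.2 FPKM with SFN+5-FU (log2 fold change 1.48, SE 0.076, adjusted p = 1.56e-06). For all 3 the lowest SFN+5-FU library was more than 2-fold above the highest control library, and they were the members with increases of at least 2-fold. The pyrimidine enzyme UMPS, which also converts 5-FU to its nucleotide, rose by 0.68 and the kinases TK1, UCK1 and CMPK1 by 0.67, 0.71 and 0.73, while UCK2 and UCKL1 fell by 0.23 and 0.27 (log2). Enzymes that cut uracil or its analogues out of DNA rose together in 4 of 4 cases: UNG by 0.69, MBD4 by 0.59, TDG by 0.58 and SMUG1 by 0.57 (log2). DUT, which keeps dUTP out of DNA, had 15.9, 15.7 and 18.2 FPKM in control and 16.4, 15.1 and 16.6 FPKM with SFN+5-FU, overlapping values that did not pass the test (adjusted p = 0.555), though it was called after quantile normalization or the GC and length correction (adjusted p as low as 0.00276). Of the folate genes, the hydrolase GGH fell from 26.2, 25.4 and 26.2 FPKM to 22.3, 19 and 17.6 FPKM (log2 fold change -0.39). TYMP, the thymidine phosphorylase, was below the filter at 1.10 to 1.24 FPKM in control and 0.530 to 0.740 FPKM with SFN+5-FU, and DPYD, which begins 5-FU breakdown, was at most 0.07 FPKM in these libraries.

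The RNA exosome, which trims and degrades nuclear RNA and has been tied to the RNA effects of 5-FU, was higher in 12 of 14 tested genes and lower in none (median log2 fold change 0.67). Of all tested genes 44.0% were higher and 31.7% lower, with a median of 0.097. The core subunit EXOSC4 rose from 11.9, 12.9 and 12.3 FPKM to 22.6, 22.5 and 22.5 FPKM (log2 fold change 0.82), and the catalytic subunits DIS3 and EXOSC10 by 0.71 and 0.55 (log2). EXOSC8 and the helicase MTREX had overlapping groups and did not pass the test. Pseudouridine synthases, enzymes that modify uridine in RNA and can be trapped by 5-FU in it, were listed with other genes of the H/ACA complex. Of the 16 tested genes of this list 14 were higher and none lower (median 0.5). DKC1, the enzyme of the H/ACA complex, rose from 15, 16.1 and 17.3 FPKM to 32.4, 30.8 and 28.5 FPKM (log2 fold change 0.89), and all 5 genes of that complex rose. The stand-alone enzymes rose in 9 of 11, among them PUS3 and RPUSD1 by 1.0 and 0.82 (log2). With the GC and length correction 1 exosome gene and 2 genes of the synthase list were called lower, and with another scaling 1 of that list was.

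**Figure D2:**
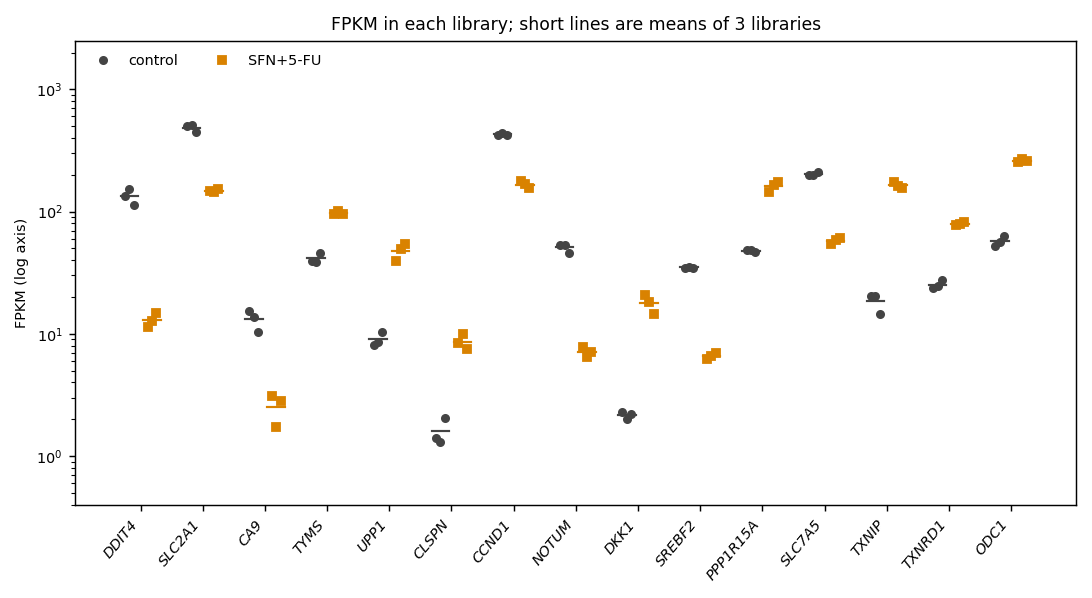
FPKM on a log axis of 15 genes in each of the 3 control (circles) and 3 SFN+5-FU (squares) libraries, with lines at the means. In none of the 15 do the groups overlap, and CCND1 falls from between 425 and 440.1 to between 155 and 176 FPKM while ODC1 rises from between 52.7 and 62.7 to between 256 and 268 FPKM.

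Genes of DNA replication were higher. Of 59 tested genes of G1/S and replication 44 rose and 4 fell (median log2 fold change 0.6), against 44.0% and 31.7% of all tested genes. At least 2-fold increases were found in 13, against 4.74% of all tested genes. At origins, ORC6 rose from 4.2, 4.59 and 5.63 FPKM to 19, 20.4 and 19.5 FPKM (log2 fold change 1.84), the licensing factors CDC6 and CDT1 rose by 1.25 and 1.17, and GINS3, a part of the replicative helicase, rose by 1.35 (log2). At the fork, RPA2, which coats single-stranded DNA, rose from 21.8, 22.6 and 27.6 FPKM to 60.2, 60.2 and 62.7 FPKM (log2 fold change 1.32), and the sliding clamp PCNA rose by 0.8 and the clamp loader subunit RFC3 by 1.22 (log2). Control replicate 3 had the highest control value of each of these except CDT1, and still lay below every SFN+5-FU library. The G1 regulators went separate ways. CCNE2, a cyclin of S-phase entry, rose from 1.03, 0.77 and 1.35 FPKM to 5.48, 5.88 and 5.55 FPKM (log2 fold change 1.7) and the phosphatase CDC25A by 1.38, while the cyclin D1 gene CCND1 fell from 425, 440.1 and 427 FPKM to 176, 167 and 155 FPKM (log2 fold change -1.37) and CCND2 by 0.59 (log2). The kinase inhibitor CDKN1B fell by 0.23 (log2), and the replicative ligase LIG1 fell from 4.99, 4.72 and 5.73 FPKM to 3.07, 3.13 and 3.11 FPKM (log2 fold change -0.58). Among the 11 that did not pass the test were the helicase subunits MCM3 and MCM6 and the polymerase subunit POLA1.

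Replication-dependent histone genes rose in 13 of 15 and fell in 2, where 44.0% of all tested genes rose and 31.7% fell. H4C8 rose from 2.32, 2.21 and 2.11 FPKM to 14.5, 16.3 and 12.9 FPKM (log2 fold change 2.27) and H2BC5 by 1.53 (log2), although these transcripts mostly lack a poly(A) tail, which the libraries were selected for, and near-identical copies can share reads. Genes of homologous recombination and the Fanconi pathway rose in 13 of 13 tested (median 0.73), BRCA1 from 1.79, 1.77 and 2.1 FPKM to 4.46, 4.42 and 3.47 FPKM (log2 fold change 0.82) and the nuclease EXO1 by 1.07. Their log2 fold changes ran from 0.27 for FANCA to 1.19 for XRCC2. CLSPN, the adaptor through which ATR activates CHEK1, had 1.41, 1.31 and 2.06 FPKM in control and 8.35, 9.88 and 7.45 FPKM with SFN+5-FU (log2 fold change 1.89, SE 0.13, adjusted p = 5.16e-06), and CHEK1 rose by 0.89 (log2). ATR was at 0.027 and did not pass the test, and the checkpoint kinase CHEK2 fell by 0.4 (log2). Excision and mismatch repair rose in 9 of 14 and fell in 2, with the polymerase POLB at 0.68 and the helicase ERCC2 at -0.53 (log2).

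Mitotic genes moved in both directions. Of 40 tested, 12 rose and 15 fell, with a median log2 fold change of -0.026 (9 and 18 after median-of-ratios scaling). Unscaled, 44.0% of all tested genes rose and 31.7% fell. The kinases of mitotic entry PLK1 and AURKA fell from 23.9, 24.8 and 25 FPKM to 12.3, 11.9 and 12.9 FPKM (log2 fold change -0.94) and from 48.2, 47 and 52 FPKM to 26, 25.3 and 26.4 FPKM (log2 fold change -0.9), and the cyclin CCNB1 and its activating phosphatase CDC25B fell by 0.41 and 0.56 (log2). The motor KIF20A fell by 1.07 (log2). FOXM1, the transcription factor of many of these genes, rose from 33.2, 34.6 and 37.5 FPKM to 62.3, 60.4 and 58.2 FPKM (log2 fold change 0.76), and CDK1, AURKB and MAD2L1, a checkpoint protein, rose by 0.49, 0.45 and 0.87 (log2). CDK1 missed the threshold with the GC and length correction (adjusted p = 0.152). MKI67, the Ki-67 marker, had 22, 19.9 and 22.2 FPKM in control and 20.9, 21.4 and 19 FPKM with SFN+5-FU, overlapping groups with a log2 fold change of -0.062 that was 0.17 and called after the GC and length correction and -0.24 and called after quantile normalization.

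**Figure D3:**
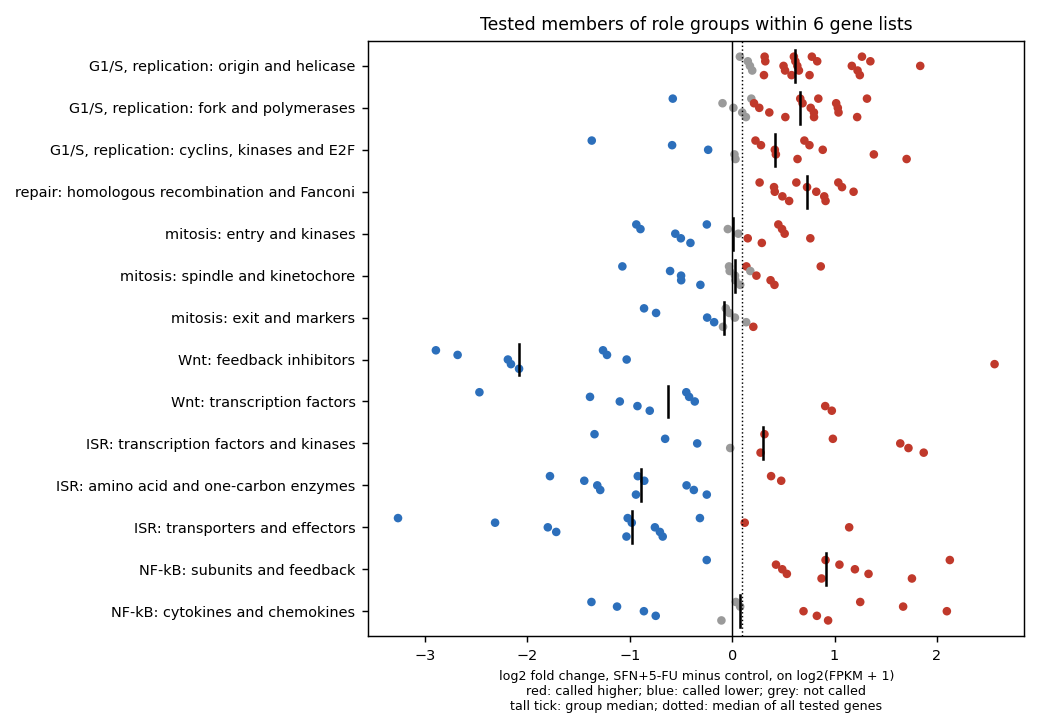
Log2 fold change (horizontal axis) of each tested gene in 14 role groups taken from 6 lists; red points were called higher, blue lower and grey neither, and the tall tick is the group's median. Medians of the replication and recombination groups lie right of 0, at 0.42 to 0.73, though single genes reach as low as CCND1 at -1.37. Mitosis groups straddle 0, and Wnt feedback inhibitors have a median of -2.08, with DKK1 alone right of 0.

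Genes of growth arrest and cell death moved in both directions. CDKN1A, the p21 inhibitor of cyclin kinases, had 68.1, 68.4 and 67.3 FPKM in control and 58.3, 63.2 and 73.5 FPKM with SFN+5-FU. Its groups overlap, and it did not pass the test (adjusted p = 0.44), although it was called lower without SFN+5-FU replicate 3 (-0.16, adjusted p = 0.0202) and after quantile normalization. PMAIP1 (NOXA), a BH3-only death protein, rose from 11, 9.82 and 11.5 FPKM to 27.8, 29.9 and 26.6 FPKM (log2 fold change 1.31), and the nuclease AEN and the growth arrest gene GADD45A by 1.19 and 0.9 (log2). The GADD45A call was lost with all 9 libraries (adjusted p = 0.0568) and kept when SFN replicate 2 was left out of that fit. BTG2, which restrains proliferation, and the secreted stress factor GDF15 fell by 1.75 and 1.5 (log2). Among 28 tested genes of the BCL2 family, receptors and caspases 20 rose and 3 fell, against 44.0% and 31.7% of all tested genes. Members on both sides of cell death were among them. The death receptor TNFRSF10A rose from 8.65, 10.2 and 10.1 FPKM to 24.8, 26.2 and 25 FPKM (log2 fold change 1.31) and the initiator caspase CASP8 by 0.83, and the apoptosis inhibitors BIRC3 and BCL2L1 rose by 1.76 and 0.32 (log2). BMF, a BH3-only protein, fell from 4, 4.31 and 3.34 FPKM to 0.58, 0.62 and 0.72 FPKM (log2 fold change -1.57), and MCL1 was at -0.0061 (log2), not called except after quantile normalization.

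NRF2 targets rose in 24 of 41 and fell in 10, where 44.0% of all tested genes rose and 31.7% fell. Their median log2 fold change was 0.28, against 0.097 over all tested genes. With other scalings it was 0.1 to 0.2, against 0.0038 to 0.047 over all tested genes. The branches differed. In the thioredoxin branch 5 of 7 rose: TXNRD1, the selenoprotein reductase of thioredoxin, had 23.5, 24.6 and 27.3 FPKM in control and 77.5, 79.3 and 81.8 FPKM with SFN+5-FU (log2 fold change 1.63, SE 0.058, adjusted p = 4.21e-07), with no overlap. Thioredoxin itself, TXN, rose from 198, 200 and 223 FPKM to 413, 446 and 466 FPKM (log2 fold change 1.09) and sulfiredoxin, SRXN1, by 0.87 (log2). The quinone reductase NQO1 rose from 67, 71.3 and 65.5 FPKM to 127, 128 and 143 FPKM (log2 fold change 0.95) and the carbonyl reductase CBR3 by 0.45 (log2). CBR1, PTGR1 and the epoxide hydrolase EPHX1 were called higher as well, calls that were each lost under at least 1 alternative. The ferritin chains FTL and FTH1, which store iron, rose by 1.41 and 0.71, and the heme oxygenase HMOX1 by 0.44 (log2). The glutathione branch was split 4 to 4. The ligase subunits GCLM and GCLC, which make glutathione's precursor, rose by 1.19 and 0.77, while the efflux pump ABCC1 fell from 11.3, 11.9 and 10.9 FPKM to 5.19, 4.72 and 4.51 FPKM (log2 fold change -1.09) and the glutathione-degrading CHAC1 by 1.03 (log2). Of the NADPH enzymes IDH1, the cytosolic isocitrate dehydrogenase, fell from 41.7, 42.2 and 44.5 FPKM to 11, 10.8 and 10.3 FPKM (log2 fold change -1.9). NRF2's own gene NFE2L2 rose by 0.68 (log2) and its inhibitor KEAP1 from 16.1, 15.7 and 17.3 FPKM to 34.1, 35.6 and 35.8 FPKM (log2 fold change 1.06). The promoter of TXNRD1, the called target with the largest increase among those that hold the letters TGACNNNGC of the antioxidant response element, lies at chr12:104215529-104215828 on the plus strand in the same RefSeq build. Capitals mark that motif on either strand, with first bases 99 and 8 bases before the start. Each gene was given 1 start, the first listed, and which start these cells use was not measured.
TXNRD1: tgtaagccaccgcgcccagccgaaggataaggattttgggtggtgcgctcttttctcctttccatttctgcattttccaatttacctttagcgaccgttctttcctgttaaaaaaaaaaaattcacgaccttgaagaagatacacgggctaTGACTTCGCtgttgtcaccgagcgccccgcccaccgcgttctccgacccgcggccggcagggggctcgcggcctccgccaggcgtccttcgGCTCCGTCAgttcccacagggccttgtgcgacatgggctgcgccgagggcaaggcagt
The motif was in 9 of the 31 target promoters matched (29%), against 13.6% of all promoters and 15.7% of those of tested genes.

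Genes of ribosome biogenesis were mostly higher. Of 40 tested genes 36 rose, 14 of them at least 2-fold, and 1 fell, the shared polymerase subunit POLR1D (-0.27 log2). Over all tested genes 44.0% rose, 4.74% rose at least 2-fold and 31.7% fell. NOLC1, a chaperone of nucleolar particles, rose from 38.1, 39.9 and 42.7 FPKM to 89.5, 87.6 and 78.8 FPKM (log2 fold change 1.06), the methyltransferase NOP2 from 21.4, 21.6 and 23.3 FPKM to 53, 50.8 and 52.7 FPKM (log2 fold change 1.2) and UTP4 of the small subunit processome by 1.28 (log2). POLR1G, a subunit of RNA polymerase I, rose most, from 3.78, 3.85 and 4.14 FPKM to 17.1, 18.1 and 18.3 FPKM (log2 fold change 1.94), but its gene lies antisense to ERCC1, and whether reads were counted by strand is not given in the sources used here. The methyltransferase FBL, at 0.078 (log2), the processome gene UTP20 and the factor UBTF did not pass the test. MYC, a transcription factor that drives such genes, rose from 46.5, 49.1 and 44.3 FPKM to 96.3, 92.8 and 88.5 FPKM (log2 fold change 0.97). The MYC network as a whole stood near the shares of all tested genes, with 5 of 12 higher and 4 lower. The partner MAX and the antagonist MXD1 rose by 0.48 and 0.36 (MXD1 not called with all 9 libraries), and the antagonist MXI1, also a HIF-1 target, and the family member MYCL fell by 1.09 and 0.76 (log2). The E-box letters CACGTG, which MYC and other factors can bind, were in 13 of 32 matched promoters (40.6%), against 7.43% of all and 10.5% of those of tested genes. The host gene of small nucleolar RNAs SNHG1 rose from 15.9, 15.9 and 16.9 FPKM to 75.1, 76 and 72.3 FPKM (log2 fold change 2.13), and 11 of 15 such hosts rose. Cytosolic ribosomal protein genes stood near the background, with 34 of 78 higher and 19 lower, a split that turned to 19 higher and 31 lower after median-of-ratios scaling. The largest change of the 78 was that of RPL3, a protein of the large subunit, which fell from 289.8, 294 and 273 FPKM to 108, 114 and 120.1 FPKM (log2 fold change -1.32).

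Mitochondrially encoded mRNAs fell in 12 of 13 (median log2 fold change -0.49, and -0.097 after quantile normalization, where 7 were called). MT-ATP6 had 5327, 5385 and 5871 FPKM in control and 3633, 2892 and 3575 FPKM with SFN+5-FU (log2 fold change -0.72, SE 0.091, adjusted p = 0.000149), and MT-ND1, at -0.053 (log2), was the 1 not called except with the GC and length correction. In the opposite direction, 10 of 13 nuclear genes listed as mitochondrial expression factors rose and none fell. That list also holds genes for mitochondrial DNA and regulators of nuclear genes. TFB2M, a mitochondrial transcription factor, rose from 7.79, 7.61 and 8.42 FPKM to 21.6, 21.9 and 19.99 FPKM (log2 fold change 1.31), the helicase TWNK by 1.11 and the packaging factor TFAM by 0.83, while the polymerase POLRMT was at 0.0035 (log2), not called except with the GC and length correction (adjusted p = 0.000914). Nuclear genes of the respiratory chain rose in 19 of 34 and fell in 8, and in 14 and 10 after median-of-ratios scaling, where 44.0% and 31.7% of all tested genes rose and fell unscaled. Their median was 0.18, and 0.022 with another scaling.

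Sterol and fatty acid synthesis fell almost throughout, in 30 of 37 tested genes, with 3 higher, where 31.7% of all tested genes fell and 44.0% rose. SREBF2, the master transcription factor of cholesterol synthesis, had 34.5, 35.5 and 34.7 FPKM in control and 6.19, 6.52 and 7.01 FPKM with SFN+5-FU (log2 fold change -2.25, SE 0.051, adjusted p = 1.04e-07). INSIG1, which retains SREBP proteins in the ER, fell by 2.63 and SREBF1 by 1.1 (log2). For SREBF2 the groups were apart by more than 4-fold. Of 20 cholesterol enzymes 16 fell, FDPS, which makes farnesyl diphosphate, from 59.1, 60.4 and 68.2 FPKM to 22.1, 22.8 and 24.4 FPKM (log2 fold change -1.4) and the sterol reductase TM7SF2 by 1.24 (log2). The HMG-CoA synthase HMGCS1 fell by 0.82 (log2). IDI1, PMVK, NSDHL and SC5D, in the same pathway, did not pass the test. In fatty acid synthesis the desaturase SCD fell from 186, 186 and 207 FPKM to 42.7, 42.5 and 40.4 FPKM (log2 fold change -2.18), and ACSS2, which activates acetate, from 34.1, 32.4 and 33.9 FPKM to 10.7, 9.94 and 10.2 FPKM (log2 fold change -1.61). The ubiquitin ligase MYLIP and the elongase ELOVL6 rose by 0.31 and 0.36 (log2), the first not called with the GC and length correction or with all 9 libraries.

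Wnt targets fell in 19 of 25 and rose in 4, where 31.7% of all tested genes fell and 44.0% rose. Feedback inhibitors that cells make in response to Wnt, some secreted or in the membrane and some inside the cell, fell in 8 of 9. NOTUM, a hydrolase that inactivates Wnt proteins, had 53.5, 53.4 and 46 FPKM in control and 7.77, 6.44 and 7.09 FPKM with SFN+5-FU (log2 fold change -2.68, SE 0.080, adjusted p = 2.36e-07). APCDD1, a membrane Wnt inhibitor, had 177, 182 and 166 FPKM in control and 21.7, 22.8 and 23.5 FPKM with SFN+5-FU (log2 fold change -2.89, SE 0.049, adjusted p = 7.26e-08). AXIN2, a scaffold of β-catenin destruction, had 149.8, 159.5 and 139 FPKM in control and 64, 62.1 and 59.2 FPKM with SFN+5-FU (log2 fold change -1.26, SE 0.057, adjusted p = 9.58e-07). The groups were apart by more than 2-fold in all 3, and NKD1, DKK4 and RNF43, also feedback inhibitors, fell by 2.08, 2.19 and 1.03 (log2). The 1 inhibitor that rose was DKK1, which blocks the LRP coreceptor, from 2.27, 1.99 and 2.22 FPKM to 20.9, 18.3 and 14.4 FPKM (log2 fold change 2.56). The stem cell factor ASCL2 fell from 43.1, 43.5 and 40.1 FPKM to 7.06, 6.53 and 6.84 FPKM (log2 fold change -2.47) and the targets SP5 and TCF7 by 1.39 and 0.92 (log2). Beside DKK1 and MYC, LEF1, a nuclear partner of β-catenin, rose from 7.79, 7.72 and 7.37 FPKM to 17.1, 15.3 and 13.4 FPKM (log2 fold change 0.91) and the adhesion receptor CD44 by 0.65 (log2). Of 6 tested genes of intestinal differentiation 4 fell and 1 rose, the nuclear receptor HNF4A (log2 fold change 0.32, adjusted p = 0.00419). CDX2, the intestinal homeobox factor, fell by 0.42 (log2), VIL1, the brush border protein villin, from 3.84, 3.98 and 3.71 FPKM to 0.86, 0.8 and 0.79 FPKM (log2 fold change -1.42), and the epithelial cadherin CDH1 from 14.5, 15.4 and 12.7 FPKM to 5.82, 5.06 and 4.65 FPKM (log2 fold change -1.3).

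Stress response genes under ATF4 divided by role. Of 10 tested transcription factors and kinases of the pathway 6 rose and 3 fell, where 44.0% of all tested genes rose and 31.7% fell. ATF3 had 5.09, 4.85 and 4.54 FPKM in control and 19.6, 21.9 and 19.5 FPKM with SFN+5-FU (log2 fold change 1.87, SE 0.063, adjusted p = 3.41e-07). PPP1R15A (GADD34), the phosphatase subunit that ends the response, had 48.6, 48.5 and 46.7 FPKM in control and 145, 164 and 174 FPKM with SFN+5-FU (log2 fold change 1.72, SE 0.064, adjusted p = 4.94e-07). DDIT3 (CHOP) had 26.1, 27.5 and 24.7 FPKM in control and 44.4, 56.5 and 58 FPKM with SFN+5-FU (log2 fold change 0.98, SE 0.098, adjusted p = 3.89e-05). None of these groups overlap, and ATF4 itself rose from 136, 135 and 134 FPKM to 154, 164 and 174 FPKM, a log2 fold change of 0.28. It missed the threshold when all 9 libraries were fitted together (adjusted p = 0.299). The ATF4 call was kept when SFN replicate 2 was left out of that fit. The enzymes, transporters and other effectors under ATF4 fell in 21 of 25 tested: PSAT1 of serine synthesis fell from 78.8, 81.7 and 80.7 FPKM to 30.8, 29.1 and 26.9 FPKM (log2 fold change -1.44), the leucine transporter SLC7A5 from 199.7, 199 and 213 FPKM to 54.4, 58.6 and 60.3 FPKM (log2 fold change -1.8) and asparagine synthetase ASNS by 1.29 (log2). SLC3A2, the partner chain of SLC7A5, rose from 82.2, 83.5 and 84.8 FPKM to 179, 190 and 188 FPKM (log2 fold change 1.14). The pseudokinase TRIB3 and the growth factor FGF19 fell by 1.34 and 2.31 (log2). DDIT4 and STC2, counted here, are also HIF-1 targets. Heat shock genes rose in 15 of 24 and fell in 4, against 44.0% and 31.7% of all tested genes. After median-of-ratios scaling 12 rose and 7 fell, where calls over all tested genes were 4704 higher and 4705 lower. DNAJA1 and HSP90AA1, both cytosolic chaperones, rose by 0.86 and 0.68, and HSPB8 fell by 0.95 (log2). Genes of the unfolded protein response stood near the share of all tested genes, with 11 of 22 higher and 6 lower and a median of 0.13 that was 0.0067 with another scaling. In this list the ER chaperone HYOU1 rose by 0.47 and HERPUD1, of ER degradation, fell by 0.8 (log2).

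NF-κB subunits and feedback genes rose in 10 of 11, where 44.0% of all tested genes rose and 31.7% fell. The adaptor TRAF1 rose from 3.5, 3.91 and 4.03 FPKM to 19.1, 19 and 22 FPKM (log2 fold change 2.13), the subunit NFKB2 from 16.6, 18.1 and 16.8 FPKM to 39.5, 39.4 and 43.3 FPKM (log2 fold change 1.2) and the inhibitor NFKBIB by 1.33; the adaptor TNIP1 fell by 0.25 (log2). Cytokines stood near the shares of all tested genes, with 6 of 13 higher and 4 lower. IL11, a cytokine of the IL-6 family, rose from 2.63, 2.67 and 2.52 FPKM to 11.9, 14.2 and 17.7 FPKM (log2 fold change 2.1) and CSF1, the macrophage growth factor, by 1.67, while CCL2, a monocyte attractant, fell from 5.06, 4.78 and 7.03 FPKM to 1.36, 1.41 and 1.84 FPKM (log2 fold change -1.37) and TNF by 0.75 (log2). CXCL1 and CXCL2 overlapped between groups and were not called. Antigen presentation genes rose in 10 of 11, with the peptide transporter subunit TAP2 at 1.4 and B2M, the light chain of class I, at 0.81 (log2). Interferon-stimulated genes rose in 7 of 12 and fell in 3: IRF7 rose from 7.21, 7.52 and 7.21 FPKM to 26, 28.4 and 29.2 FPKM (log2 fold change 1.79), and IFI27 fell from 5.54, 6.21 and 5.97 FPKM to 1.41, 1.83 and 1.51 FPKM (log2 fold change -1.42). Genes of ERK output and feedback fell in 17 of 28 and rose in 7. The immediate early genes EGR1 and FOS fell from 386, 366 and 338 FPKM to 134, 142 and 145 FPKM (log2 fold change -1.36) and from 202, 205 and 188 FPKM to 81.9, 74.7 and 79 FPKM (log2 fold change -1.33), and DUSP6, the ERK phosphatase, by 0.72 (log2). FOSL1, a FOS relative, rose from 83.9, 77.7 and 86.7 FPKM to 210.1, 216 and 222 FPKM (log2 fold change 1.37), and the EGF family ligands HBEGF, AREG and EREG rose by 1.52, 1.15 and 1.04 (log2).

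**Figure D4:**
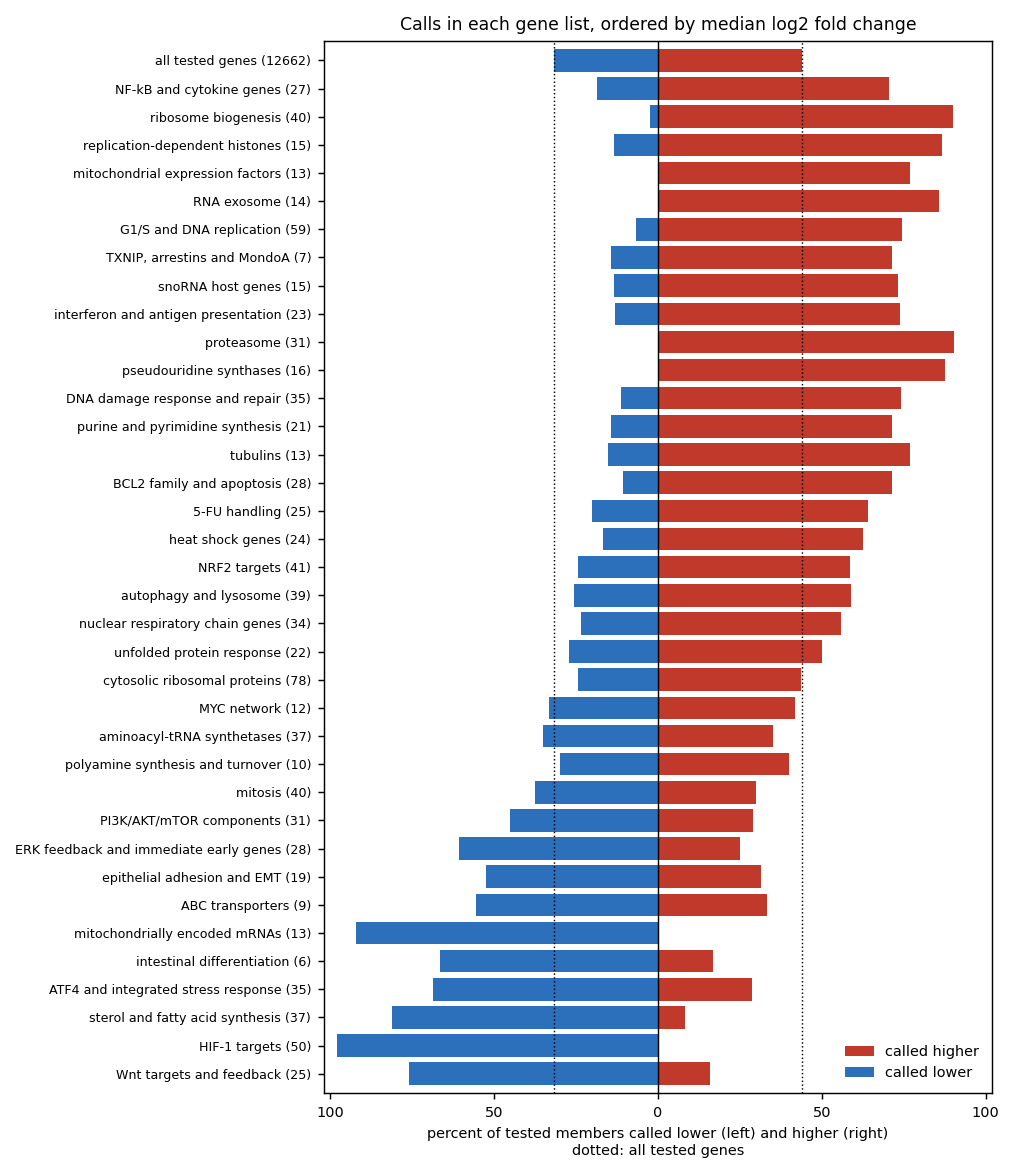
Percent of tested members called higher (red, right) and lower (blue, left) in each of 36 gene lists and in all 12662 tested genes, with the number tested in brackets and dotted lines at the values of all tested genes (44.0% and 31.7%). HIF-1 targets, mitochondrially encoded mRNAs and sterol genes extend furthest left, and the proteasome, ribosome biogenesis and pseudouridine synthases furthest right.

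Among all genes with a mean of at least 5 FPKM, a symbol and no overlap between groups, the largest increases included TXNIP, an arrestin that restrains glucose uptake and binds thioredoxin. TXNIP had 20.4, 20.4 and 14.4 FPKM in control and 176, 161 and 155 FPKM with SFN+5-FU (log2 fold change 3.1, SE 0.12, adjusted p = 6.32e-07), an 8.91-fold difference of the means with no overlap. Its relative ARRDC4 rose from 1.83, 1.81 and 1.33 FPKM to 8.73, 8.19 and 8.14 FPKM (log2 fold change 1.82). Of the other listed arrestins ARRDC2 rose (log2 fold change 0.81), ARRDC1 fell (-0.34) and ARRDC3 was not called (0.17, adjusted p = 0.189). CSF3, the granulocyte growth factor, rose from 0.46, 0.45 and 0.43 FPKM to 9.23, 10.3 and 12.1 FPKM (log2 fold change 2.99), and PI3, the protease inhibitor elafin, from 1.68, 3.18 and 2.37 FPKM to 36.8, 28.6 and 39.2 FPKM (log2 fold change 3.41). NRP1, a coreceptor of VEGF and semaphorins, rose from 2.76, 2.74 and 2.9 FPKM to 17.8, 18.4 and 16.9 FPKM (log2 fold change 2.3), and the semaphorin SEMA7A by 2.34 (log2). The recombination cofactor PSMC3IP, the membrane protein ITM2C, the protease KLK10 and the long noncoding LINC00973 rose by 2.54, 2.4, 2.29 and 3.33 (log2). IGHE and RPL13AP20, at 3.86 and 2.45 (log2), lie in families of similar sequence, so their identity is uncertain.

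The largest decreases included LINC02943 (-4.0), the myosin gene MYH7B (-3.63 log2) and, beside DDIT4, EGLN3, APCDD1 and NOTUM, several secreted or surface proteins. IGFBP3, which binds insulin-like growth factors, had 396, 400.3 and 356 FPKM in control and 53, 40.3 and 49 FPKM with SFN+5-FU (log2 fold change -3.0, SE 0.097, adjusted p = 2.87e-07). PDGFA, a growth factor for mesenchymal cells, had 78.4, 82.8 and 60.8 FPKM in control and 8.38, 7.76 and 9.26 FPKM with SFN+5-FU (log2 fold change -2.98, SE 0.11, adjusted p = 5.35e-07). ENTPD8, an ectonucleotidase, had 79, 80.4 and 68.6 FPKM in control and 8.18, 6.64 and 8.35 FPKM with SFN+5-FU (log2 fold change -3.14, SE 0.091, adjusted p = 2.17e-07). Their highest SFN+5-FU libraries lay more than 6-fold below their lowest control libraries. SLC5A3, the inositol transporter, fell from 132, 118 and 112 FPKM to 17.6, 14.8 and 14.5 FPKM (log2 fold change -2.87), although its transcripts share sequence with those of MRPS6. The exchange factor FGD5 and the semaphorin SEMA6B fell by 2.88 and 2.79 (log2). In all, 5576 genes rose and 4016 fell out of 12662 tested, and 600 rose and 736 fell at least 2-fold. After median-of-ratios scaling the calls were split evenly, with 4704 higher and 4705 lower, and with the mitochondrial transcripts left out 4732 were higher and 4628 lower.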

How the data were processed

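RNA of 9 SW480 libraries was sequenced from poly(A)-selected, strand-marked paired-end libraries. The deposited values were gene-level FPKM to 2 decimals. Per the submitters' processing notes, fastp, StringTie and edgeR were used, with no versions. The sources used here name no aligner, genome build or annotation and do not say whether counting used strand. Of 41041 identifiers 41002 matched a name table and 29784 had a symbol.

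The 12662 genes with a mean of at least 1 FPKM over the 9 libraries were tested in the 6 libraries of the comparison on log2(FPKM + 1), with limma 3.58.1 in R 4.3.3 (moderated test, mean-variance trend, Benjamini-Hochberg over all tested genes, adjusted p of 0.05). With 3 libraries a group, the moderated test used 4 residual degrees of freedom and 3.84 prior degrees of freedom estimated over all tested genes. The code was tested on simulated data. The comparison and the gene lists were chosen with earlier results of these data known, and lists were described by counts and medians with no list test. Listed members below the filter were not tested, and some tested members are not reported here. Genes named by rule were the 12 largest increases and decreases (called, mean of at least 5 FPKM, no overlap), the 4 largest called changes of each list, and a set of pathway genes. Other list members were named as examples after their values were seen. Alternatives covered the pseudocount, the filter, scaling, the variance model, the libraries fitted, a GC and length correction and the omission of each library. Within the control and the SFN+5-FU group, identical or near-identical libraries were not found: at most 10.4% of tested genes agreed within 1% between any pair. SFN replicate 2 was not part of this check. Promoters came from RefSeq on GRCh38.p14, at the first listed start of each gene, with motifs counted on both strands.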

Additional observations from a re-analysis of the deposited data

How the results depend on the processing

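Of 187 genes named by rule, 179 kept their call and direction under each alternative that tested them. Most of the 187 were picked for large called changes in these same data, so this count does not speak for other genes. Calls of list members with small changes, such as BIRC5 (0.14 log2) and CASP9 (-0.16 log2), were lost under several alternatives. The number of genes higher ranged from 5212 to 5534, the number lower from 3750 to 3933, and the number changed at least 2-fold from 1276 to 1442 when 1 library was left out. A minimum mean of 5 FPKM, which tests fewer genes, gave 3611 higher, 1990 lower and 787 changed at least 2-fold. The 2-fold count was 2168 with a pseudocount of 0.1 and 403 with a pseudocount of 5, which shifts the log values by construction. With the GC and length correction HIF1A was -0.13 (adjusted p = 0.0368) and MKI67 0.17 (adjusted p = 0.0237), both opposite in sign to the uncorrected values. The other 6 were MT-ND4 (-0.08 and not called after quantile normalization), AKT1, MTOR, EIF4EBP1, CDKN1A and ATF4, and the cause was not tested for any of the 8. Replicate numbers did not pair the libraries: same-numbered libraries of the groups deviated together with correlations of -0.143 to 0.019, and with the replicate block 5368 genes were higher, 3891 lower and 1339 changed at least 2-fold. Of the genes named by rule it ended the call of EIF4EBP1 alone. With all 9 libraries CCNB1 and ABCB1 were not called. The calls of both, and of ATF4 and GADD45A, were kept when SFN replicate 2 was left out of that fit. Cytosolic ribosomal proteins were 24 higher and 28 lower after quantile normalization and 17 and 33 with the GC and length correction, and PI3K/AKT/mTOR components 8 and 19 after median-of-ratios scaling. With depth unknown, no interval for counting error could be given, and values near 0.01 FPKM are at the rounding limit.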

Other observations

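Of 31 tested proteasome genes 28 rose and none fell, where 44.0% of all tested genes rose. Their median log2 fold change was 0.51, and as low as 0.32 with another scaling. After median-of-ratios scaling 24 were higher and 1, PSMD1, was lower, and with the GC and length correction 24 were higher and 3 lower. Among the largest increases were those of the lid subunit PSMD12, from 17.8, 16.8 and 20.6 FPKM to 36.7, 40.2 and 35.4 FPKM (log2 fold change 0.99), and of the ATPase PSMC4, by 0.96 (log2). Of 39 tested genes of autophagy and the lysosome 23 rose and 10 fell, where 44.0% of all tested genes rose and 31.7% fell. The protease cathepsin L, CTSL, rose from 6.31, 6.24 and 6.98 FPKM to 17.8, 19.98 and 20.2 FPKM (log2 fold change 1.43), while the glycogen-degrading GAA fell from 11.3, 11.1 and 9.52 FPKM to 3.07, 3.11 and 3.21 FPKM (log2 fold change -1.49) and the phagophore protein WIPI1 by 1.24 (log2). Tubulins rose in 10 of 13, TUBA1B from 456, 461 and 498 FPKM to 959.5, 1032 and 1047 FPKM (log2 fold change 1.1), although tubulin genes share long stretches of sequence. In polyamine synthesis ODC1, the rate-limiting decarboxylase, rose from 52.7, 56.1 and 62.7 FPKM to 256, 268 and 258 FPKM (log2 fold change 2.17) and the spermidine synthase SRM by 1.26, and SAT1, which begins polyamine breakdown, fell by 0.5 (log2). Purine and pyrimidine synthesis genes rose in 15 of 21 and fell in 3, with the CTP synthase CTPS1 at 1.04, its paralogue CTPS2 at -0.49 and the purine enzyme PAICS at -0.53 (log2).

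Of 13 tested genes of epithelial junctions and their splicing 7 fell and 3 rose, where 31.7% of all tested genes fell and 44.0% rose. The splicing factor ESRP1 fell from 16.4, 17.8 and 16.8 FPKM to 4.25, 3.82 and 3.76 FPKM (log2 fold change -1.86) and claudin 1, CLDN1, by 1.63 (log2). The tight junction proteins TJP1 and OCLN and the splicing factor ESRP2 rose by 0.41, 0.38 and 0.31 (log2). The mesenchymal genes were divided, with the intermediate filament VIM rising by 0.56 and fibronectin, FN1, falling by 1.24 (log2). Of 9 tested drug efflux transporters 3 rose and 5 fell. ABCB1, the P-glycoprotein gene, rose from 3.63, 3.83 and 3.42 FPKM to 5.07, 4.64 and 4.51 FPKM (log2 fold change 0.31). Cytosolic and mitochondrial aminoacyl-tRNA synthetases rose in 13 of 37 and fell in 13 (9 and 14 after median-of-ratios scaling), with the glutaminyl enzyme QARS1 at -0.88 and the phenylalanyl subunit FARSB at 0.94 (log2).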
